A study of Rattus norvegicus with 40 samples.

Results

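The 10 genes described here belong to the bone morphogenetic protein (BMP) and transforming growth factor beta (TGF-beta) pathways. They are the ligands Bmp4, Bmp7, Tgfb1, Tgfb2 and Tgfb3, the extracellular BMP regulator Bmper, the pathway inhibitor Smad7 and the target genes Id1, Id2 and Id3. They were chosen by name, as the probe sets annotated to 1 of these genes alone, and make up 10 of the 14217 genes named on the array. The arrays held 14 such probe sets, and 11 of them, covering 9 of the 10 genes, passed a filter on low values that kept 18625 of 31042 probe sets. Tgfb1 had no probe set that passed.

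Total RNA of rat cerebral cortex was hybridised to 40 Affymetrix 1-colour expression arrays, 20 labelled as hypoxic preconditioning and 20 as sham. The labels number the samples of each group 1 to 20, and they fall into 4 runs of numbers, 1 to 5, 6 to 10, 11 to 15 and 16 to 20, with 5 preconditioned and 5 sham arrays each. The sources used here give neither what a run stands for nor the oxygen level, the duration, the strain or the age, so run and any processing batch cannot be told apart. Separate animals are not mentioned in the labels, and p-values therefore measure only the spread between these samples, part of which may be technical.

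Hypoxic preconditioning is a mild exposure to low oxygen after which brain tissue better withstands a harsher insult. BMP and TGF-beta ligands are secreted dimers that bind paired serine/threonine kinase receptors, which phosphorylate Smad proteins that then enter the nucleus with Smad4. BMP receptors act mainly through Smad1 and its relatives and induce the Id genes, whose products bind basic helix-loop-helix transcription factors and keep them off DNA. In the brain the pathways are known for their parts in astrocyte differentiation, in blood vessels and in the response to injury.

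The values are deposited linear intensities, which were set to at least 16 before log2 was taken. Differences are log2 values, preconditioned minus sham, given with their standard error from 1 limma fit of 8 group means over all 40 arrays, and adjusted p-values are those of Benjamini and Hochberg over 18625 probe sets, with a threshold of 0.05. The trimmed mean intensity was between 150.04 and 150.06 on all arrays. Preconditioned arrays 5 and 6 stood apart, with median log2 intensities of 5.59 and 5.53. Calls after preconditioning that ended without them are given with and without them. Uncalled differences are given with them only. The number of arrays limits the precision. For the tissue label, 8 of 10 listed markers of cortical neurons were measured, and their summed intensity was 7465 to 9779 on preconditioned arrays and 7289 to 8859 on sham arrays. Markers of the choroid plexus were also present, with a summed intensity over 3 genes of 3107 to 6536 on preconditioned arrays and 157 to 6743 on sham arrays. The value of 157 was on a sham array of numbers 6 to 10. Because the RNA is from whole tissue, fewer cells of a type and less RNA per cell cannot be told apart.

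Of the 9 measured genes, 1 was called in each of the first 3 runs and none in the last. Id1 was higher after preconditioning in numbers 1 to 5, Id3 was lower in numbers 6 to 10, and Bmper was lower in numbers 11 to 15. Of all 18625 probe sets, 2.39%, 2.22%, 0.0698% and 0% were called in the order of the runs. Each of these 3 changes was under 1 log2 unit, and the measured ligands Bmp4, Bmp7, Tgfb2 and Tgfb3, as well as Id2 and Smad7, were called in no run. The fit leaves the sample numbers out, and the result for Id2 depended on that, as given with the processing settings. The differences of the members after preconditioning differed between runs for Id3 and Bmper, by a test of the difference itself.

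The 250 bases before the annotated start of Id1, Id3 and Bmper, the genes called after preconditioning, are shown because motifs of Smad and hypoxia factors were searched there. They are RefSeq sequences of rat build GRCr8, each on the plus strand, at chr3:161671314-161671563 for Id1, chr5:153656041-153656290 for Id3 and chr8:30007916-30008165 for Bmper. Capitals mark GGCGCC, the GC-rich letters known from BMP-responsive enhancers.
Id1: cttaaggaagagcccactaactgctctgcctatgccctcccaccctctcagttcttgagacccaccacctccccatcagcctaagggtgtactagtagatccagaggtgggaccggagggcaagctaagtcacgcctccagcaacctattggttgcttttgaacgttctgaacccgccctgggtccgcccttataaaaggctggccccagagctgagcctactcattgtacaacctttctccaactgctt
Id3: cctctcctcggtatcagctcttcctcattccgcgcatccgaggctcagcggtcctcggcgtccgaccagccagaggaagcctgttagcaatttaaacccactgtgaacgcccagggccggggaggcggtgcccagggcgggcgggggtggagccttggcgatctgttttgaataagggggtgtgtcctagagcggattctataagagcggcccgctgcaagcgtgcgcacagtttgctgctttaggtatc
Bmper: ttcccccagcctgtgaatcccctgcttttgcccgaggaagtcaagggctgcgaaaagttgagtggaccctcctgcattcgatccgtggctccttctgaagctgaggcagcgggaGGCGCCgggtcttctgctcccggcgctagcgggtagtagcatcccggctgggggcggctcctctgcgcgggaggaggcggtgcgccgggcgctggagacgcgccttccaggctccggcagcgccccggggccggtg
The window searched ran from 250 bases before the start to 50 after it, on both strands, and it was searched for 9 of the 10 members. Bmp7 was not searched here. GGCGCC occurred at position -136 of Bmper and at positions -96 and -36 of Smad7, and in 11.0% of all 33469 promoters of that length. CAGAC, a short Smad binding element that 50.1% of all promoters hold, occurred at position 24 after the start of Id1 and at positions -200 and -35 of Bmp4. The core of the hypoxia response element was searched only as ACGTG, and its other form, GCGTG, was not searched. ACGTG lay on both strands of the palindrome CACGTG at position -72 of Bmp4 and position -229 of Tgfb2, and 19.3% of all promoters hold it. The Smad palindrome GTCTAGAC, which 0.197% of all promoters hold, was in none of these 9 windows. Id2, Id3, Tgfb1 and Tgfb3 held none of the 4 motifs in the letters searched.

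The target genes come first, because 2 of the 3 Id genes were called. Id1 encodes an inhibitor of differentiation that BMP signals induce in many cell types, vascular endothelium among them. In numbers 1 to 5 its probe set read 254, 248, 240, 263 and 287 on preconditioned arrays and 237, 200, 210, 191 and 190 on sham arrays. Every preconditioned array was above every sham array. The means were 258 ± 18.1 on preconditioned arrays and 206 ± 19.3 on sham arrays (SD, n = 5 each), a difference of 0.33 ± 0.09 or 1.26-fold (limma adjusted p = 0.028). For numbers 6 to 10, Id1 read 352, 287, 339, 285 and 267 on preconditioned arrays and 277, 307, 242, 276 and 270 on sham arrays, where the groups overlapped (0.15 ± 0.09, limma adjusted p = 0.37). Its differences were 0.00 ± 0.09 in numbers 11 to 15 and -0.10 ± 0.09 in numbers 16 to 20, with overlapping groups. The effect on Id1 was not shown to differ between the runs (limma adjusted p = 0.21).

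The Id1 call in numbers 1 to 5 was near the threshold. It ended without preconditioned array 4 (limma adjusted p = 0.055) or 5 (0.102), and without sham array 2 (0.061), 3 (0.052), 4 (0.083) or 5 (0.077). Without preconditioned arrays 5 and 6 the difference was 0.29 (0.079), and with only the 10 arrays of that run the adjusted p was 0.068. In the same run 3 of 9 measured markers of endothelial and mural cells were also higher, Kdr by 0.40 ± 0.08, Vwf by 0.49 ± 0.13 and Pecam1 by 0.53 ± 0.14, and so was 1 of 6 oligodendrocyte lineage markers, Pdgfra (0.34 ± 0.08). The summed intensity of the 9 was 1715 to 1996 on preconditioned arrays and 1680 to 1916 on sham arrays, which overlap, and the part of these markers in the Id1 difference was not tested.

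Id3 encodes a close relative of Id1 and is likewise a target of BMP signals. In numbers 6 to 10 its probe set read 472, 438, 524, 415 and 364 on preconditioned arrays and 568, 565, 612, 556 and 629 on sham arrays. All 5 preconditioned arrays lay below all 5 sham arrays. The means were 443 ± 60.3 on preconditioned arrays and 586 ± 32.2 on sham arrays (SD, n = 5 each), and Id3 fell by 0.41 ± 0.07 on the log2 scale (limma adjusted p = 0.00033). This call held when any 1 of the 10 arrays was left out, with an adjusted p of at most 0.0031, and without preconditioned arrays 5 and 6 the difference was -0.44 (limma adjusted p = 0.00041). With only the 10 arrays of that run the adjusted p was 0.049.

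In numbers 1 to 5, Id3 read 438, 418, 423, 458 and 421 on preconditioned arrays and 529, 544, 484, 475 and 447 on sham arrays. Only preconditioned array 4, at 458, reached the sham range, but the difference of -0.20 ± 0.07 was not called (limma adjusted p = 0.13). In numbers 11 to 15 the groups overlapped (-0.02 ± 0.07), and in numbers 16 to 20 the preconditioned arrays, at 553 to 590, reached above the sham arrays, at 489 to 565, with a difference of 0.13 ± 0.07 (limma adjusted p = 0.93). The 4 differences of Id3 were thus -0.20, -0.41, -0.02 and 0.13 in the order of the runs, and the test of a difference between runs gave a limma adjusted p of 0.0052. That call ended under median centring of the arrays (0.061). Among the markers in numbers 6 to 10, 1 of 7 astrocyte markers, Gfap, was higher (1.02 ± 0.19), as were 1 of 6 microglia and macrophage markers, Mrc1 (0.74 ± 0.14), and 1 of 6 oligodendrocyte lineage markers, Pdgfra (0.45 ± 0.08). The median differences of these 3 lists were below 0, at -0.11 for astrocytes, -0.12 for microglia and macrophages and -0.18 for the oligodendrocyte lineage. Kdr (0.53 ± 0.08) and Vwf (0.54 ± 0.13) of the endothelium were also higher there, while Tek, an endothelial receptor, fell by 0.51 ± 0.11. The summed intensity of the 9 endothelial and mural markers was 1701 to 1951 on preconditioned arrays and 1736 to 1881 on sham arrays, and that of the 7 astrocyte markers 8098 to 12155 on preconditioned arrays and 7213 to 9702 on sham arrays. The 3 choroid plexus markers summed to 3525 to 6197 on preconditioned arrays and 157 to 5250 on sham arrays of numbers 6 to 10. The part of all these markers in the Id3 difference was not tested.

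Id2, the Id gene with a known place in neurons and oligodendrocyte precursors, had a difference above 0 in all 4 runs and was called in none of them by this fit, which leaves the sample numbers out. With the sample number as a replicate block, Id2 was called in numbers 1 to 5 and in numbers 6 to 10, as given with the processing settings. In numbers 1 to 5 its probe set read 3242, 4008, 2580, 3203 and 4878 on preconditioned arrays and 2488, 3060, 1997, 2260 and 3087 on sham arrays. All but array 3 of the 5 preconditioned arrays were above every sham array, and the difference was 0.46 ± 0.16 (limma adjusted p = 0.11). In numbers 6 to 10 it read 3180, 2878, 2399, 3454 and 4093 on preconditioned arrays and 2165, 2043, 2357, 2806 and 3295 on sham arrays (0.34 ± 0.16, limma adjusted p = 0.27). The groups overlapped there and in the later runs, with differences of 0.14 ± 0.16 and 0.05 ± 0.16. A second probe set of Id2 gave 0.24 ± 0.11, 0.38 ± 0.11, 0.12 ± 0.11 and 0.05 ± 0.11 in the order of the runs, with its lowest limma adjusted p, 0.054, in numbers 6 to 10. Over all 40 arrays Id2 differed by 0.25 ± 0.08 (limma adjusted p = 0.11).

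**Figure D1:**
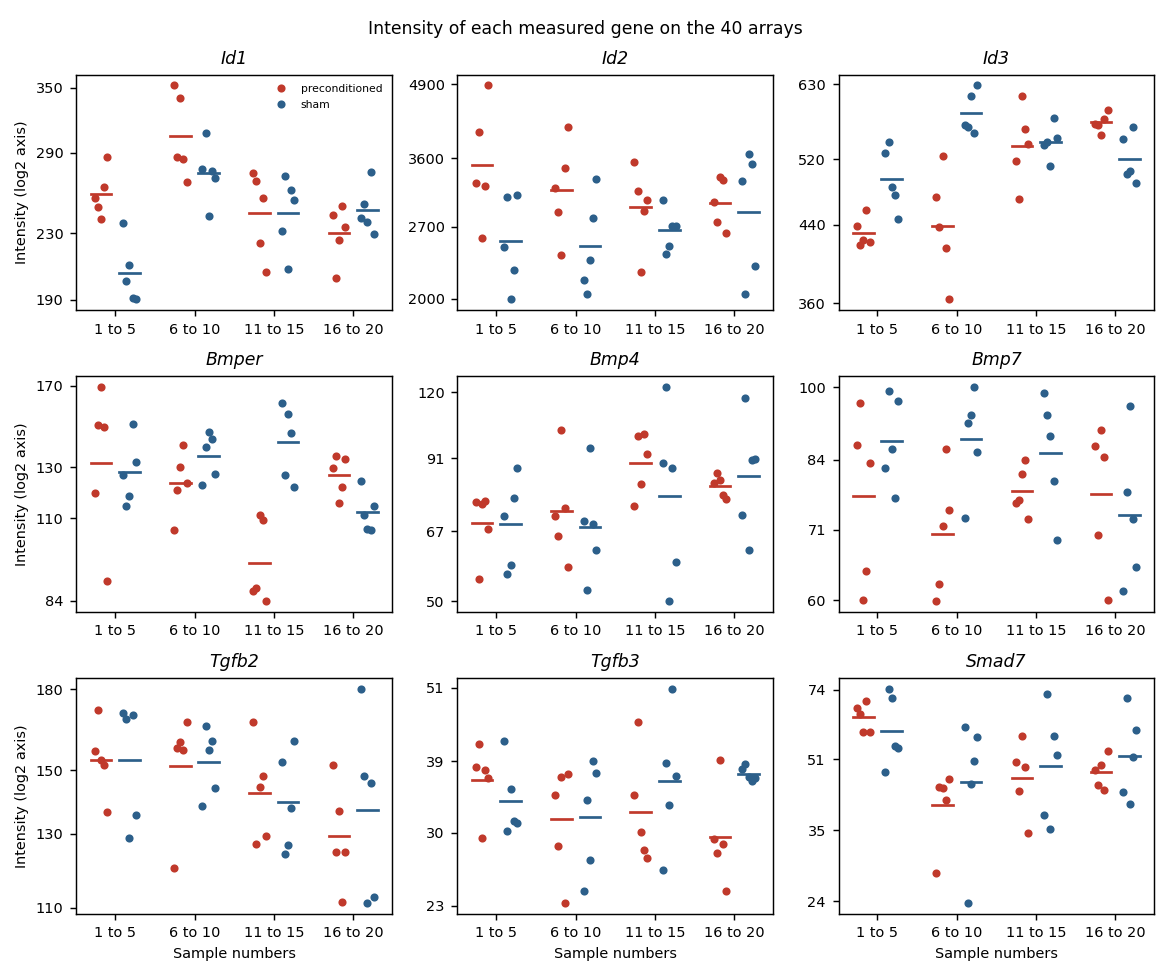
Deposited intensity of the 9 measured genes on each of the 40 arrays, on log2 axes, by run of sample numbers, with preconditioned arrays (red) left of sham arrays (blue) and a bar at each group's mean of log2 values (n = 5). The groups do not overlap for Id1 in numbers 1 to 5, Id3 in numbers 6 to 10 and Bmper in numbers 11 to 15.

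Bmper, which encodes a secreted BMP-binding protein known to act in endothelial cells and able to dampen or aid BMP signals, was lower after preconditioning in numbers 11 to 15. Its probe set read 86.7, 87.6, 111, 110 and 83.9 on preconditioned arrays and 161, 127, 155, 146 and 122 on sham arrays. No preconditioned array reached the lowest sham array. The means were 95.8 ± 13.5 on preconditioned arrays and 142 ± 17.0 on sham arrays (SD, n = 5 each), and Bmper fell by 0.57 ± 0.12 on the log2 scale, to 0.674 of the sham level (limma adjusted p = 0.030). The call ended without preconditioned array 11 (limma adjusted p = 0.129), 12 (0.130) or 15 (0.095), without sham array 11 (0.123), 13 (0.130) or 14 (0.075), without the filter on low values (0.052) and in the run's own 10 arrays alone (0.144). The difference lay between -0.63 and -0.52 when any 1 array was left out.

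In the other runs Bmper overlapped between the groups. It averaged 135 ± 31.1 on preconditioned arrays and 129 ± 14.0 on sham arrays in numbers 1 to 5, 124 ± 12.5 on preconditioned arrays and 136 ± 10.0 on sham arrays in numbers 6 to 10, and 127 ± 8.19 on preconditioned arrays and 112 ± 7.52 on sham arrays in numbers 16 to 20 (SD, n = 5 each). The differences were 0.05, -0.13, -0.57 and 0.18 in the order of the runs, each ± 0.12. The test of a difference between runs gave a limma adjusted p of 0.043, which passed 0.05 when any of 22 single arrays was left out (up to 0.107). These were preconditioned arrays 2, 4, 11, 12, 15, 16, 17, 19 and 20 and sham arrays 1, 2, 3, 7, 8, 9, 11, 13, 14, 17, 18, 19 and 20, and the adjusted p was 0.069 without the filter. Of the markers in numbers 11 to 15, 1 of 9 of the endothelium and mural cells, Vwf, was higher (0.61 ± 0.13), with a list median of 0.22, and 1 of 7 of astrocytes, Gfap (1.07 ± 0.19), with a list median of -0.09. By limma 0 of 10 meningeal markers were called and 1 had an unadjusted p under 0.05. The meningeal markers summed to 2032 to 2502 on preconditioned arrays and 2187 to 2668 on sham arrays, and those of endothelial and mural cells to 1819 to 2120 on preconditioned arrays and 1695 to 1844 on sham arrays. Their part in the Bmper difference was not tested.

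The ligands gave no call. Bmp7, a BMP known from cortical development, had the lowest adjusted p of the 4 measured ligands. In numbers 6 to 10 its probe set read 59.9, 62.4, 71.7, 86.3 and 74.5 on preconditioned arrays and 73.1, 91.7, 93.5, 100 and 85.6 on sham arrays. Preconditioned arrays 6, 7 and 8 were below every sham array, and the difference was -0.33 ± 0.13 (limma adjusted p = 0.19). Its differences were -0.19 ± 0.13 in numbers 1 to 5, -0.13 ± 0.13 in numbers 11 to 15 and 0.07 ± 0.13 in numbers 16 to 20. Bmp4, a ligand that favours astrocyte over oligodendrocyte fate, ranged from 50.005 to 123 over all arrays and differed by 0.01 to 0.20 or by -0.06 between the groups of a run, each ± 0.18. In numbers 11 to 15 it read 74.5, 99.9, 81.7, 101 and 92.8 on preconditioned arrays and 89.2, 123, 50.005, 87.3 and 59.0 on sham arrays, so that the sham arrays spread wider than the difference of 0.20.

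Among the TGF-beta isoforms, Tgfb2 ranged from 111 to 180 over the 40 arrays. Its differences were 0.00, -0.01, 0.03 and -0.09 in the order of the runs, each ± 0.11, and a second probe set gave -0.12, 0.09, 0.00 and -0.10, each ± 0.15. Tgfb3 was just inside the filter, whose limit was an intensity of 31.9, with a geometric mean of 33.5. In numbers 16 to 20 it read 29.3, 27.9, 39.1, 28.8 and 24.3 on preconditioned arrays and 37.9, 38.7, 36.9, 36.3 and 36.6 on sham arrays. All preconditioned arrays but array 18 were below the sham arrays, with a difference of -0.34 ± 0.17 (limma adjusted p = 0.93). Tgfb1 did not pass the filter, and its probe set ranged from 1.34 to 40.2 with a median of 14.0, and 23 of 40 arrays were at or below the floor of 16, so no fold is given. Smad7, which blocks receptor signalling and is itself induced by TGF-beta, averaged 64.0 ± 4.78 on preconditioned arrays and 60.4 ± 11.5 on sham arrays in numbers 1 to 5, and 40.5 ± 7.29 on preconditioned arrays and 47.5 ± 14.6 on sham arrays in numbers 6 to 10 (SD, n = 5 each). Its differences ranged from -0.18 to 0.10, each ± 0.20, and its other 2 probe sets did not pass the filter.

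**Figure D2:**
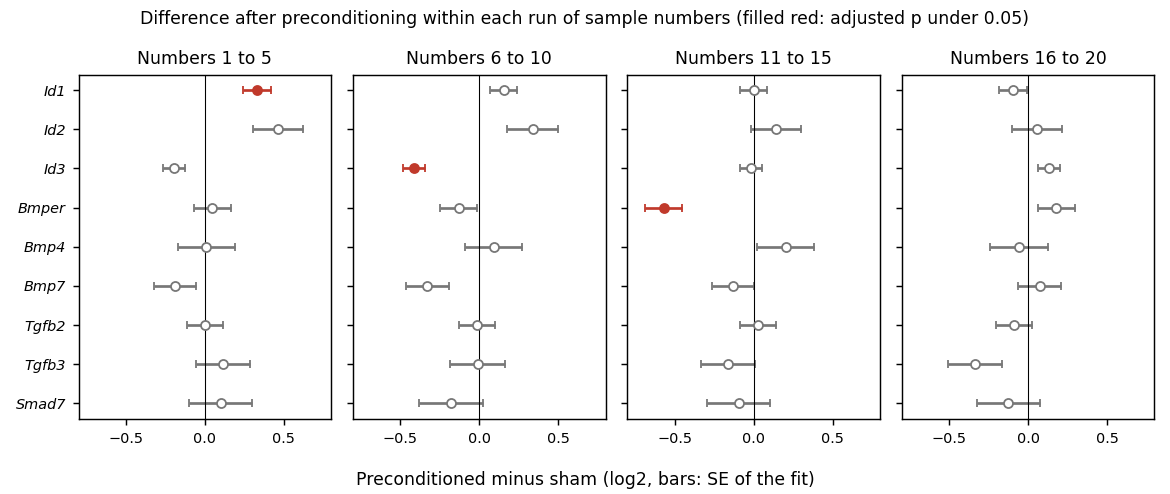
Difference between preconditioned and sham arrays for each measured gene, as log2 values with bars for the fitted standard error, in the 4 runs of sample numbers. Filled red points, with an adjusted p under 0.05, are Id1 (0.33), Id3 (-0.41) and Bmper (-0.57), and all other points are open.

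Read against all probe sets, a call of 1 of 9 members stood beside 445 called probe sets in numbers 1 to 5, 413 in numbers 6 to 10 and 13 in numbers 11 to 15. In numbers 16 to 20 limma called 0 of 9 members and 0% of all, and at an unadjusted p under 0.05 it was 0 of 9 members and 5.11% of all. Groups that did not overlap were found for Id1, Id3 and Bmper, 1 member in each of the first 3 runs, beside 4.28%, 3.66% and 2.21% of all probe sets in the order of the runs, and for no member in the last run, beside 1.14%. With 9 members a single call is the smallest count above 0. The median difference of the members was 0.05, -0.01, -0.02 and -0.06 in the order of the runs, and that of all probe sets -0.03, -0.02, 0.00 and 0.00. Over all 40 arrays, limma called 0 of 9 members and 0.891% of all probe sets, and 3 members, Id2, Id3 and Bmp7, had an unadjusted p under 0.05, as did 14.9% of all. Differences between runs were called for 2 of 9 members beside 0.762% of all.

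The sham arrays alone asked whether the level of a gene differed between runs without preconditioning. Id1 was the 1 of 9 members called (limma adjusted p = 0.0075), beside 13.7% of all probe sets. Its sham arrays averaged 206 ± 19.3 in numbers 1 to 5, 274 ± 23.2 in numbers 6 to 10, 245 ± 25.3 in numbers 11 to 15 and 247 ± 17.5 in numbers 16 to 20 (SD, n = 5 each). The lowest sham level was in numbers 1 to 5, the run in which Id1 was called after preconditioning, and both comparisons use those 5 sham arrays. The sham arrays 6 to 10, at 277, 307, 242, 276 and 270, were all above the sham arrays 1 to 5, by 0.41 ± 0.09 (limma adjusted p = 0.012), where 1.26% of all probe sets were called. Those of 16 to 20, at 241, 250, 237, 275 and 229, were above those of 1 to 5 by 0.26 ± 0.09 (limma adjusted p = 0.035), where 14.8% of all were called. This second call ended without sham array 2 (limma adjusted p = 0.074), 4 (0.086), 5 (0.078), 17 (0.069) or 19 (0.110), under median centring (0.057) and without the filter (0.057). No other pair of sham runs was called for Id1: sham arrays 11 to 15 were above 1 to 5 by 0.25 ± 0.09 (limma adjusted p = 0.17), and the later runs were below 6 to 10 by 0.17 and 0.15.

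No other member was called between sham runs in the fit of all 40 arrays. A fit of the sham arrays alone added Id3 to the test over all 4 runs, as given with the processing settings. In the other 4 pairs of sham runs limma called 0 of 9 members, beside 0.677% of all for 11 to 15 minus 1 to 5, 0.29% for 11 to 15 minus 6 to 10, 11.4% for 16 to 20 minus 6 to 10 and 0.65% for 16 to 20 minus 11 to 15. The sham level of Id3 was highest in numbers 6 to 10 at 586 ± 32.2 and lowest in numbers 1 to 5 at 496 ± 39.97 (SD, n = 5 each), 0.24 ± 0.07 apart (limma adjusted p = 0.071), and the test over all 4 runs gave 0.065. The preconditioned arrays averaged 432 ± 16.6 for Id3 in numbers 1 to 5 and 443 ± 60.3 in numbers 6 to 10. The sham level of Bmper was highest in numbers 11 to 15 at 142 ± 17.0 and lowest in numbers 16 to 20 at 112 ± 7.52 (SD, n = 5 each), and 16 to 20 minus 11 to 15 was -0.33 ± 0.12 (limma adjusted p = 0.14). Its preconditioned mean was lowest in numbers 11 to 15, at 95.8 ± 13.5. Id3 and Bmper were each called lower after preconditioning in the run with their highest sham level, and both comparisons use those sham arrays. The sham means of Bmp4, Bmp7, Id2, Smad7, Tgfb2 and Tgfb3 had limma adjusted p of 0.38 to 0.73 over the runs. In the same sham arrays, 4 of 7 astrocyte markers, 3 of 6 oligodendrocyte lineage markers, 2 of 6 microglial, 2 of 10 meningeal and 2 of 8 neuronal markers differed between runs, and 0 of 9 endothelial and mural markers were called by limma, with 0 at an unadjusted p under 0.05. Their part in the Id1 level was not tested.

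**Figure D3:**
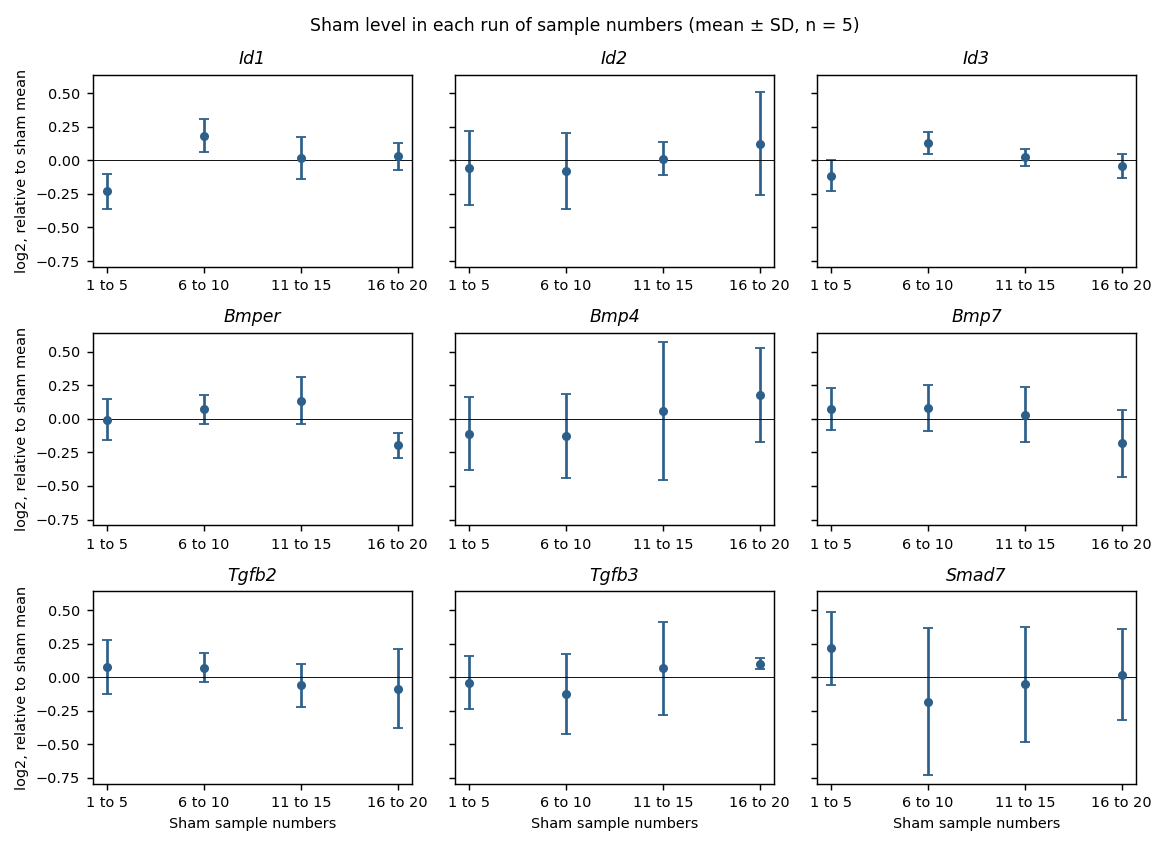
Sham level of the 9 measured genes in each run of sample numbers, as mean ± SD of 5 arrays on the log2 scale, with the mean over the 4 runs set to 0. Id1 is lowest in numbers 1 to 5 and highest in numbers 6 to 10, 0.41 apart.

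Other genes of the pathways were taken from a list of 108, of which 61 were measured. Each is given by a single probe set, the kept one with the highest mean. Smad1, Bmp6, Zeb2, Acvr1, Inhba and Col1a1, named below, have further kept probe sets, which were not examined. In numbers 1 to 5, 4 of the 61 were higher and 0 lower, in numbers 6 to 10, 3 were higher and 0 lower, and in the later runs limma called 0, with 3 and 4 at an unadjusted p under 0.05. Beside them stand 2.39%, 2.22%, 0.0698% and 0% of all probe sets in the order of the runs. The median difference of the 61 was 0.02, -0.02, 0.01 and 0.00 in the order of the runs. None of the 12 measured extracellular inhibitors, latency proteins and activators was called by limma in any run, and 2 and 4 of them had an unadjusted p under 0.05 in the first and the second run. In numbers 1 to 5 and 6 to 10 the groups did not overlap for 4.28% and 3.66% of all probe sets. Nor did they overlap for Rgma in 1 to 5, or for Tgfbi, uncalled and higher, in 6 to 10. Acvr1, uncalled and lower, had no overlap in 11 to 15, beside 2.21% of all. How many of the 61 had no overlap was not counted.

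Ccn2, the matrix protein also called connective tissue growth factor and a known target of TGF-beta, had the largest difference of the called genes. In numbers 1 to 5 it read 256, 226, 214, 262 and 231 on preconditioned arrays and 132, 108, 151, 124 and 150 on sham arrays, with no overlap, a difference of 0.85 ± 0.12 (limma adjusted p = 1.3e-05). In numbers 6 to 10 it read 178, 204, 190, 183 and 292 on preconditioned arrays and 173, 159, 153, 130 and 125 on sham arrays, again with no overlap (0.48 ± 0.12, limma adjusted p = 0.024). The second call ended without preconditioned array 10 (0.104), without sham array 9 (0.070) or 10 (0.070), and in the run alone (0.131). In the later runs the groups overlapped, with differences of -0.15 ± 0.12 and 0.00 ± 0.12, and the effect differed between runs (limma adjusted p = 0.0011).

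Pmepa1, a transmembrane inhibitor of TGF-beta signalling that TGF-beta itself induces, rose in the same pair of runs. It averaged 345 ± 15.0 on preconditioned arrays and 279 ± 21.1 on sham arrays in numbers 1 to 5 (0.31 ± 0.08, limma adjusted p = 0.017), and 310 ± 23.0 on preconditioned arrays and 257 ± 5.16 on sham arrays in numbers 6 to 10 (0.27 ± 0.08, limma adjusted p = 0.049), with n = 5 each and no overlap in either run. The first call ended without sham array 3 (0.056) or 4 (0.064), and the second without any of preconditioned arrays 6, 7, 9 and 10 and sham arrays 6 to 10 (0.051 to 0.126), without preconditioned arrays 5 and 6 (0.085), without the filter (0.058), without a mean trend (0.057) and in the run alone (0.112). Bmp6, a BMP ligand, read 126, 126, 140, 133 and 139 on preconditioned arrays and 91.8, 102, 97.5, 97.8 and 125 on sham arrays in numbers 1 to 5, with no overlap (0.37 ± 0.09, limma adjusted p = 0.014), a call that ended in the run alone (0.0997). Smad1, the transducer of BMP signals, read 515, 511, 546, 529 and 521 on preconditioned arrays and 423, 463, 451, 461 and 445 on sham arrays in numbers 6 to 10, with no overlap (0.22 ± 0.05, limma adjusted p = 0.0087), which also ended in the run alone (0.112). Rgma, a BMP co-receptor and axon guidance protein, averaged 661 ± 28.9 on preconditioned arrays and 563 ± 43.8 on sham arrays in numbers 1 to 5 (0.23 ± 0.07, limma adjusted p = 0.048, n = 5 each). That call ended without any of preconditioned arrays 2 to 5 or sham arrays 2 to 5 (0.051 to 0.140), without preconditioned arrays 5 and 6 (0.120) and under 4 further settings (0.058 to 0.113). Uncalled, Bmp6 differed by 0.26 ± 0.09 in numbers 6 to 10 (limma adjusted p = 0.103) and Smad1 by 0.16 ± 0.05 in numbers 1 to 5 (0.075). Rgma differed by -0.02 ± 0.07 in numbers 6 to 10. The effect was not shown to differ between runs for Pmepa1 (limma adjusted p = 0.12), Bmp6 (0.08), Smad1 (0.051) or Rgma (0.353).

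**Figure D4:**
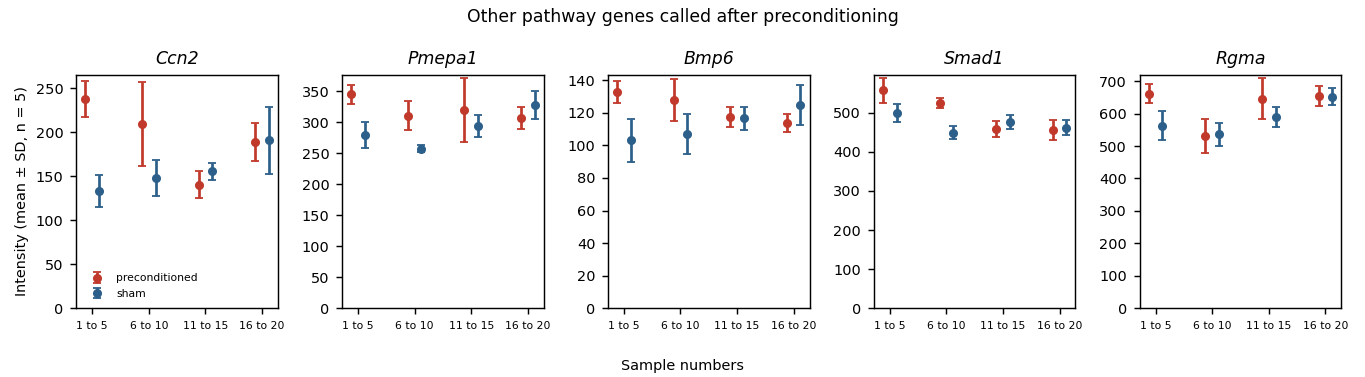
Mean intensity ± SD (n = 5) of the 5 other pathway genes called after preconditioning, by run of sample numbers, with preconditioned arrays (red) left of sham arrays (blue) and axes from 0. Ccn2 and Pmepa1 are called higher on preconditioned arrays in numbers 1 to 5 and 6 to 10. Bmp6 and Rgma are called higher in 1 to 5, and Smad1 in 6 to 10. A call in 1 run does not show that the runs differ.

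Across the sham runs 10 of the 61 were called, beside 13.7% of all probe sets. Among them were 3 of the 5 genes called after preconditioning, Pmepa1 (limma adjusted p = 0.0095), Rgma (0.015) and Ccn2 (0.020), and both comparisons use the same sham arrays. Sham Ccn2 averaged 191 ± 37.9 in numbers 16 to 20 and 133 ± 18.1 in numbers 1 to 5 (SD, n = 5 each), a difference of 0.51 ± 0.12 (limma adjusted p = 0.0040). Numbers 1 to 5 had the lowest sham mean of the 4 runs and the largest difference of Ccn2 after preconditioning. The Ccn2 call across sham runs ended without sham array 2 (0.053), 17 (0.053) or 20 (0.099). The 10 also included Inhba, a subunit of activin (limma adjusted p = 0.0031), and Zeb2, a Smad-interacting repressor (0.0045), which were lower in sham arrays 16 to 20 than in 1 to 5 by 0.57 ± 0.12 and 0.62 ± 0.13, and the collagen gene Col1a1 (0.0088). The calls of the receptor gene Acvr1 (limma adjusted p = 0.043) and the target gene Tgfbi (0.039) ended without any of 12 single sham arrays for Acvr1 and any of 10 for Tgfbi (up to 0.126 and 0.122), and that of the kinase gene Map3k7 (0.032) without sham array 1, 2, 5, 17 or 20 (0.067 to 0.098).

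Over the 40 arrays, Pearson's r of the 36 pairs of measured members, a description over arrays that share groups and runs, ranged from -0.40 (Id2 and Id3) to 0.28 (Bmper and Tgfb2). For Id2 and Id3 it was -0.33 without preconditioned arrays 5 and 6 and -0.21 within groups, that is after the means of group and run were taken off. Within groups the 36 values ranged from -0.41 (Bmper and Id1, -0.14 over all arrays) to 0.44 (Tgfb3 and Id1, 0.21 over all arrays). The genes whose pattern over the 40 arrays was most like that of Id1 were Higd1a, Shisa9 and Hnrnpa3 (Pearson's r of 0.66, 0.65 and 0.64). For Id3 they were Atf7ip, Slco1c1 and Tceal1 (0.77, 0.76 and 0.74), and for Bmper they were Ppp1r12a, Sanbr and Usp13 (0.74, 0.73 and 0.70). These are the highest of 10304 named genes and carry no test.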

How the data were processed

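Linear probe set intensity values were used as deposited, 1 per probe set and array, for 31099 probe sets on 40 arrays. Which software and scaling made them is not stated in the sources used here. The deposited intensities had a common trimmed mean, so the arrays had been scaled. From these, 57 control probe sets were left out, intensities under 16 were set to 16, and log2 was taken; probe sets at or above the 40th percentile of the mean were kept (0.149% of their values at the floor). Genes were named from the platform annotation, by probe sets with 1 gene. A gene was represented by its kept probe set with the highest mean. Groups and sample numbers were taken per the labels.

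limma 3.58.1 in R 4.3.3 (lmFit, eBayes with a mean trend) fitted 8 group means, and separately 2 group means for all arrays. The tests of a difference between runs, in the effect of preconditioning or in the sham level over all 4 runs, were limma F-tests. All other tests were two-sided. The fit was tested on simulated data. The members, lists and tests were chosen with earlier results of these data known. The text names all members, up to 4 called genes of each other list and up to 2 called in the sham test alone, and the 3 genes most like each called member. Promoter sequences are from RefSeq, GRCr8. Alternatives changed the normalization, floor, filter, trend, arrays and blocking.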

Additional observations from a re-analysis of the deposited data

Results flagged for a closer look

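The effect of preconditioning differed between the runs of sample numbers, by the limma interaction test over all probe sets, for Id3 (adjusted p = 0.0052), Bmper (0.043) and Ccn2 (0.0011).

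Of 80 groups of 5 arrays tested for a single array far from the other 4, 7 had one past Dixon's limit of 0.71, and chance flags about 1 in 20 groups. Tgfb2 read 120 on preconditioned array 6, against 157 to 167 on the other preconditioned arrays of its run. Smad7 read 27.9 on the same array, against 41.04 to 46.0. The other 5 concern Tgfb1, whose level was near the floor of 16, which was set before the spread was taken. It read 16.4 on preconditioned array 3, 26.0 on preconditioned array 9 and 33.5 on preconditioned array 13, where the other 4 arrays of each group were at the floor, and 30.4 on sham arrays 5 and 6, against at most 18.9 and 19.0 on the other arrays of their groups.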

How the results depend on the processing

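The settings tried were median centring, quantile normalization, a floor of 1, log2 of intensity plus 32, no filter, a 60th percentile filter, no mean trend, the sample number as a replicate block, leaving out preconditioned arrays 5 and 6 or each array in turn, fits of a run or of the sham arrays alone, and, for all arrays, the run as a covariate and each run left out. No direction of a called value was reversed. Of 6507 values of single genes under alternatives, 6300 kept their side of the threshold, 140 lost their call and 67 gained one; 168 uncalled values changed sign. In numbers 1 to 5, where 1 member was called, 2 were with the replicate block, 0 without preconditioned arrays 5 and 6 and 0 in the run alone. The count was 2 with the block, against 1, for numbers 6 to 10. In numbers 11 to 15 it was 0 without the filter and 0 in the run alone, against 1. Over all arrays it was 1 with the block and 2 without numbers 16 to 20 (Id2 0.31, limma adjusted p = 0.039; Id3 -0.21, 0.042), against 0. The interaction test called 1 under median centring and 1 without the filter, against 2, and the sham test 2 with quantile normalization, 2 with the 60th percentile filter and 2 in the sham arrays alone, against 1, where Id3 was added. Leaving out 1 array gave 0 to 1 members called in numbers 1 to 5, the same in numbers 11 to 15, 1 to 2 by the interaction test and 1 to 2 by the sham test, where Id3 was called without sham array 2 (limma adjusted p = 0.048). With the replicate block Id2 was called in numbers 1 to 5 (0.46, limma adjusted p = 0.0022), in numbers 6 to 10 (0.34, 0.024) and over all arrays (0.25, 0.0067). The numbers are a hint from the data, not the design, that samples were paired: deviations of same-numbered samples correlated by 0.031 to 0.393, over 0.1 in 15 of 20 pairs, each number matched its own best in 19 of 20, and sex transcripts matched in 20 of 20. The cause of these changes was not tested. Signal over background limits Tgfb1 and Tgfb3, and 5 arrays a group limit all results.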

Other observations

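Id1 and Id3 are set against each other here. The difference between Id1 and Id3, taken on each array as log2 Id1 minus log2 Id3, was higher on preconditioned than on sham arrays by 0.53 ± 0.07 in numbers 1 to 5 and by 0.57 ± 0.09 in numbers 6 to 10 (SE, n = 5 each), and in both runs all 5 preconditioned arrays were above all 5 sham arrays. In numbers 11 to 15 it differed by 0.01 ± 0.13, with 2 preconditioned arrays above all sham arrays, and in numbers 16 to 20 by -0.23 ± 0.06, with 0 above. The difference was thus lower on preconditioned arrays in numbers 16 to 20, and arrays below all sham arrays were not counted. This measure was chosen after the values of both genes were seen, so no test is given. Id1 by itself had no overlap in numbers 1 to 5, and Id3 by itself had none in numbers 6 to 10. The lack of overlap of their difference rests in part on these and is not further support. The share of other gene pairs with no overlap was not counted.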
